A study of Saccharomyces cerevisiae with 54 samples.

Results

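The galactose utilisation genes of *Saccharomyces cerevisiae* were examined as a group of 7 genes out of the 6002 nuclear protein-coding genes of the R64 gene table. They were located by symbol, without use of any measured value, but the list was chosen with earlier results of these data known. GAL7 (YBR018C), GAL10 (YBR019C) and GAL1 (YBR020W) lie side by side on chromosome II. The other 4 are scattered, GAL2 (YLR081W) on chromosome XII, GAL3 (YDR009W) on chromosome IV, GAL4 (YPL248C) on chromosome XVI and GAL80 (YML051W) on chromosome XIII.

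These genes form the pathway by which yeast takes up galactose and turns it into glucose phosphate, and they are a standard model of inducible transcription. GAL2 encodes the galactose permease, GAL1 the galactokinase, GAL7 the uridylyltransferase and GAL10 the epimerase. Gal4 is the activator that binds upstream of the pathway genes, Gal80 holds Gal4 inactive, and Gal3 is the galactose sensor that releases Gal4 from Gal80. In glucose medium the pathway is off, and the repressor Mig1 brings the Tup1-Cyc8 corepressor to GAL promoters. Tup1 works with histone deacetylases, among them the Hda1 complex.

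Chromatin immunoprecipitation and sequencing (ChIP-seq) was made from cells grown in YPD, a rich medium with 2% glucose, at 30 °C, and no galactose culture is among the libraries. Acetylated H3 (H3ac) and acetylated H4 (H4ac) were measured in wild-type cells, in cells without the deacetylase Hda1 (genotype hda1-/- in the labels, hda1∆ here) and in cells without Tup1 (tup1-/-, tup1∆ here). The myc tag was measured in untagged cells, in cells with Hda1-18myc, and in cells whose Hda1-18myc lacks the Arb2 domain (Hda1(arb2∆)-18myc), a domain at the carboxyl end of Hda1. H4ac and the tag were measured in 2 sets of libraries, one labelled as carrying added *S. pombe* material (with spike-in) and one not (without spike-in), and H3ac was measured only without it. The study's methods give spike-in material for every ChIP-seq other than H3ac, which conflicts with these labels, so the names of the 2 sets follow the labels only. Every strain, antibody and set has 2 libraries. The study calls them independent ChIP-seq experiments, and neither it nor the labels say whether the cultures were separate, so the spread between 2 libraries may be technical.

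The files give, for each of the 30 libraries, the peaks that MACS2 called over a control. The measurement used here is the peak coverage, that is the percent of a coding region (start to stop codon) or of a 400 bp window before the start codon that lies under peaks. It records where a peak was called and not how high it was, and a coverage of 0 means that no peak was called, not that acetylation was absent. A gene was called changed when both libraries of one group lay at least 10 percentage points above both libraries of the other. With 2 libraries against 2, an exact two-sided permutation test cannot give a p under 0.333, so no such p is attached to a single gene. The lists hold no read counts, and the depth behind each peak is unknown.

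The 18 acetylation lists hold 2203 to 3197 peaks and the 12 anti-myc lists 10 to 983. Among the latter, libraries of 1 group differed widely in the spike-in set, with 235 and 10 peaks in untagged cells and 628 and 59 in cells whose Hda1-myc lacks Arb2. The deleted genes behaved as labelled where they could be read. HDA1 was 0% covered in all 6 acetylation libraries of hda1∆ and at least 8.91% covered in the 12 others. TUP1 was 0% covered in the 4 H4ac libraries of tup1∆ and 2.66% to 7.80% covered in the 8 others, but its H3ac coverage was 0% in every library and checks nothing.

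**Figure D1:**
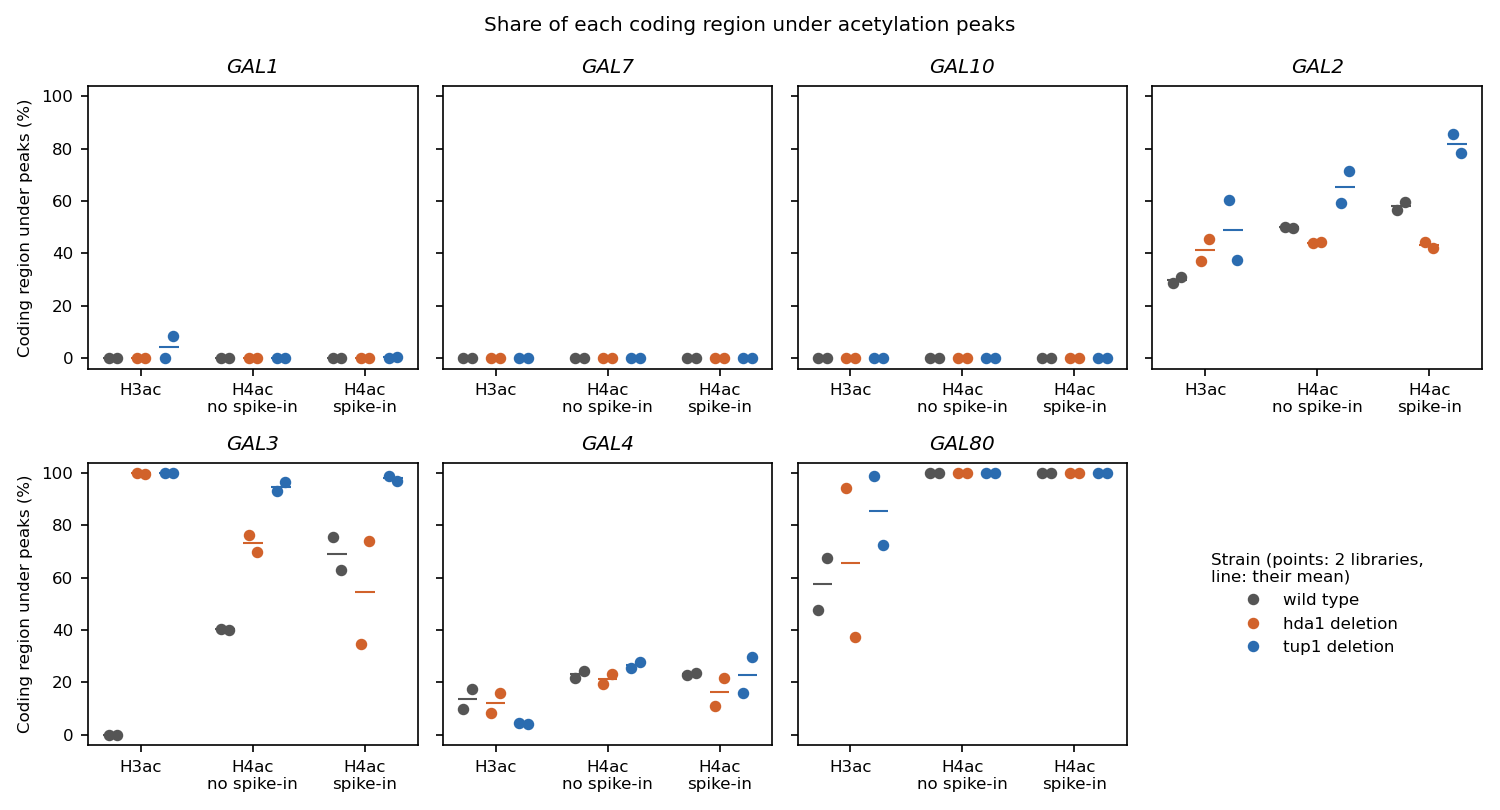
Percent of each coding region under H3ac or H4ac peaks, 1 panel per gene, with 1 point per library and a line at the mean of the 2 libraries of a strain. GAL7 and GAL10 stay at 0 throughout, GAL80 is at 100 in every H4ac library, GAL3 goes from 0 in wild-type cells to 99.6 or more in both mutants for H3ac, and GAL2 shows its highest H4ac values, 78.3 and 85.5, in tup1∆ of the spike-in set.

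The 7 genes fell into 3 kinds in glucose medium. GAL1, GAL7 and GAL10 had almost no acetylation peak in any strain, GAL80 was wholly covered by H4ac peaks in every strain, and GAL2, GAL3 and GAL4 were partly covered, GAL2 and GAL4 towards their 3′ ends and GAL3 from its 5′ end. Few of them changed in the mutants. Over coding regions, 1 of the 7 was called in hda1∆ for H3ac (GAL3, a gain), where 13.9% of all genes were called in either direction, and 1 in tup1∆ (GAL3, a gain), against 15.3% of all genes. For H4ac without spike-in, 1 of 7 was called in hda1∆ (GAL3, a gain; 16.5% of all genes) and 1 in tup1∆ (GAL3, a gain; 13.6% of all genes). For H4ac with spike-in, 1 of 7 was called in hda1∆ (GAL2, a loss; 15.1% of all genes) and 2 in tup1∆ (GAL2 and GAL3, both gains; 13.1% of all genes). With 7 genes these counts stand near the background, and nothing is read from them about the group. The comparisons of hda1∆ and tup1∆ share their wild-type libraries.

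Upstream of the start codon, GAL3 was the only member called. It was called as a gain in hda1∆ and tup1∆ for H3ac (14.1% and 16.1% of all genes called), in hda1∆ and tup1∆ for H4ac without spike-in (16.5% and 12.9%) and in tup1∆ for H4ac with spike-in (13.2%). No member was called upstream in hda1∆ with spike-in, where 14.6% of all genes were. The median difference between mutant and wild-type cells over all genes was 0 in each of these comparisons, for coding and for upstream regions. Upstream, ties hold this median at 0, so it cannot show a shift. For H4ac with spike-in in hda1∆, 1628 of 6002 windows had no peak and 2050 were wholly covered in every library compared. Mean upstream H4ac differences in hda1∆ were -9.36 points with spike-in and -9.24 without. There 1.77% and 1.55% of all genes rose, and 12.8% and 14.9% fell. In tup1∆ the H4ac means were 4.58 and 3.84 points. For H3ac they were -0.0976 points in hda1∆ and 1.51 in tup1∆.

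The chromosome II cluster held almost no peaks. GAL7 and GAL10 had 0% coverage in all 18 acetylation libraries and all 12 anti-myc libraries, over the coding region and upstream of it. GAL1 was at 0% in all but 2 libraries, both of tup1∆. In replicate 2 of H3ac it reached 8.32%, from a peak of 286 bp at its 3′ end (chromosome II, 280476 to 280761) with a fold enrichment of 1.39, at the 6.56th percentile of that library's peaks. In replicate 2 of H4ac with spike-in it reached 0.441%, from the edge of a peak of 1469 bp that lies on the side of FUR4. The same strain's replicate 1 was at 0% in both cases. The divergent intergenic region of 668 bp between GAL1 and GAL10, which holds the binding sites of Gal4, and the 725 bp between GAL10 and GAL7 had no peak in any of the 30 libraries.

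**Figure D2:**
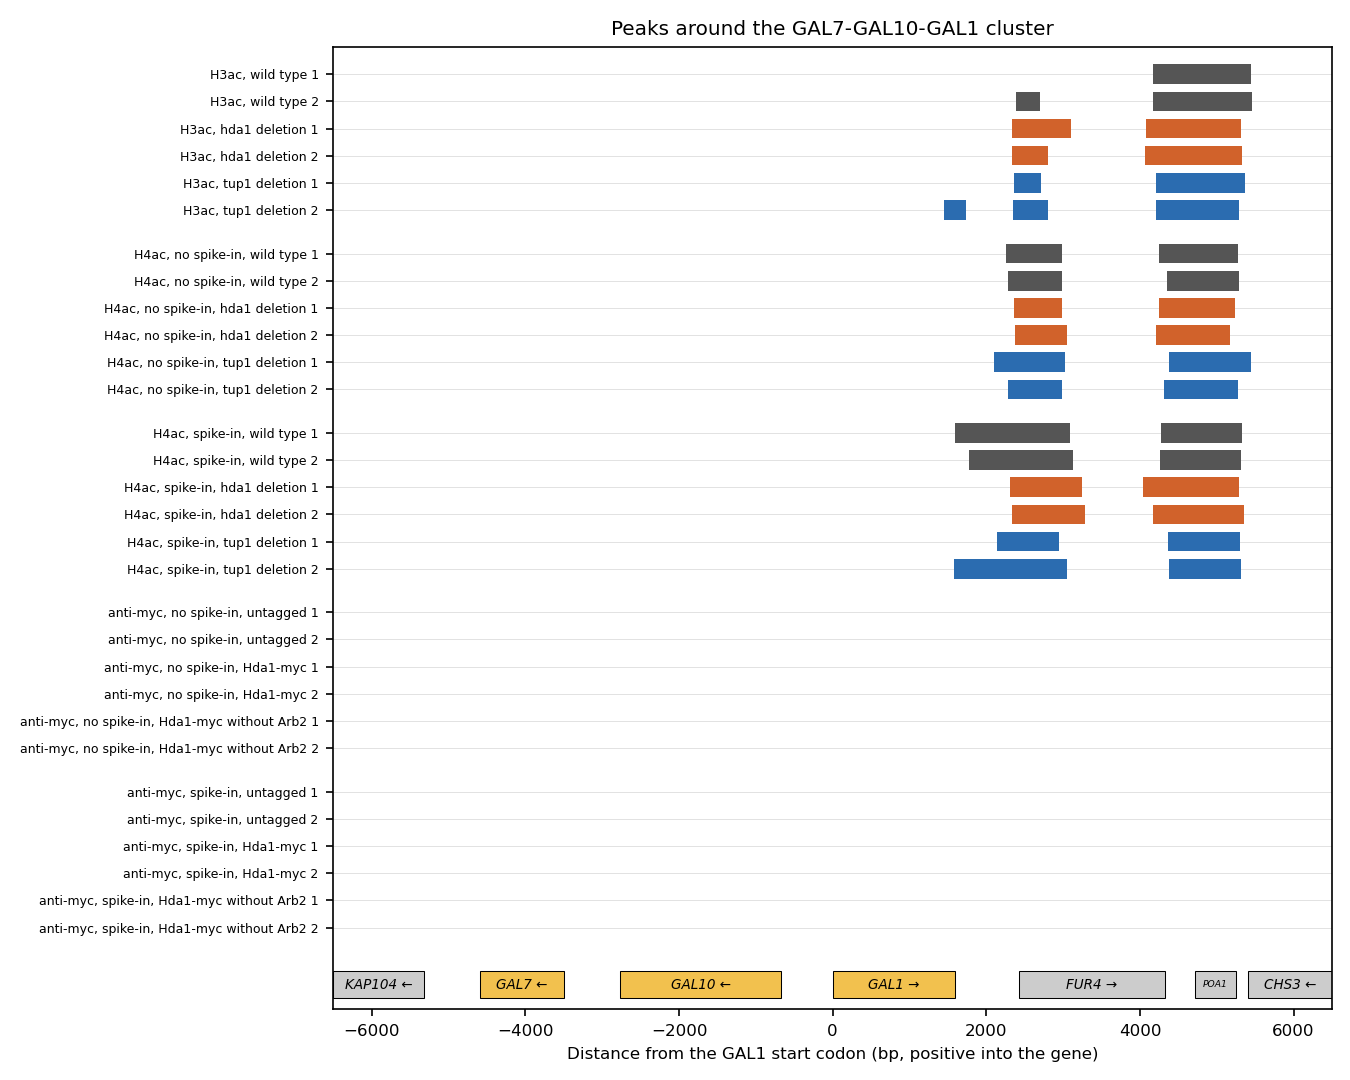
Peaks around the cluster, 1 line per library, against distance from the GAL1 start codon in bp, with coding regions as boxes at the bottom (galactose genes in yellow, arrows showing direction). No peak lies over GAL7, GAL10 or the regions between the 3 genes, the first peaks beyond GAL1 lie around FUR4, and no anti-myc peak lies within the window.

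The peak-free stretch around the cluster measured 9738 to 13164 bp in the 18 acetylation libraries. It ran 3467 to 4398 bp past the stop codon of GAL7, over KAP104, a nuclear import receptor gene, and ended near FUR4, the uracil permease gene, on the other side. Stretches of this length are not rare, and 2.48% to 13.7% of all genes lay in one at least as long, depending on the library. A coding region without a peak in all 18 acetylation libraries was found for 630 genes (10.5%). Of 5970 runs of 3 adjacent genes, 45 (0.754%) had no gene over 10% in any of these libraries, the cluster among them. The limit of 10% was not planned and lets in GAL1 with its 8.32%, so this share is a description and no test.

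GAL3 showed the widest range among the members. For H3ac its coding region was at 0% in both wild-type libraries. It was at 100% and 99.6% in hda1∆ and at 100% in both tup1∆ libraries, so the groups lay at opposite ends of the scale. The differences were 99.8 and 100 percentage points (limma over all 6 H3ac libraries, Benjamini-Hochberg adjusted p = 1.78e-05 and 1.66e-05 over 3940 genes). These and the limma p-values below rest on few libraries per strain, whose spread may be technical. Coverage is also bounded at 0% and 100%. Little spread at these bounds does not measure how precisely acetylation was known. limma also left out genes at 0% in all 6 libraries, so GAL3 entered the H3ac test through its mutant libraries alone. Of the 3940 genes, it called 13.5% in hda1∆ and 15.9% in tup1∆. The 2 H3ac p-values are therefore not read as further support. Upstream, the H3ac coverage was 0% in both wild-type libraries, 100% and 73.8% in hda1∆ and 100% in both libraries of tup1∆. A single H3ac peak made up this coverage in each mutant library, between 1852 and 2485 bp long, such as chromosome IV, 462632 to 465017 in replicate 1 of hda1∆. Its fold enrichment was 1.68 to 2.06, which stood between the 44.8th and 71.9th percentile of the peaks in its library. Of all 6002 genes, 2182 had no H3ac peak in either wild-type library, and 35 of these (0.583% of all genes) were at least 95% covered in all 4 mutant libraries. This pattern was not planned and has the shape of the GAL3 values, so the share is a description and no test.

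For H4ac, GAL3 carried a peak over its 5′ part in wild-type cells already. Without spike-in the coding coverage was 40.4% and 40.1% in wild-type cells, 76.3% and 69.8% in hda1∆ and 93.0% and 96.5% in tup1∆. Values of the 3 strains did not overlap, and the differences from wild-type cells were 32.8 points in hda1∆ and 54.5 points in tup1∆ (limma adjusted p = 0.0044 and 0.000802). When the coding region was cut into 10 equal parts, wild-type peaks covered the first 4 parts and ended in the fifth, those of hda1∆ ended in the seventh or eighth, and those of tup1∆ reached the last.

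With spike-in, the wild-type libraries were already at 75.4% and 63.0%. The hda1∆ libraries stood at 34.7% and 74.1%, 1 below both wild-type libraries and 1 between them, and no call was made. Leaving out replicate 2 of hda1∆ would have made it a loss, at -34.4 points, and leaving out replicate 1 gave no call, so the hda1∆ value in this set rests on which library is taken. Replicate 1 has its GAL3 peak at the 4.22th percentile of fold enrichment in that library. The gain of H4ac coverage in hda1∆ was thus seen in the set without spike-in and not in the set with it, and the difference between the sets was not tested. In tup1∆ the spike-in libraries were at 98.9% and 97.1%, a difference of 28.8 points from wild-type cells. That call was lost in limma (adjusted p = 0.429) and with a margin of 25 points. A rule of 50% coverage could not call a gain, because both wild-type libraries were already above 50%.

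Upstream of GAL3, H4ac coverage without spike-in was 27.0% and 46.2% in wild-type cells, 71.8% and 72.8% in hda1∆ and 100% in both libraries of tup1∆. With spike-in it was 72.5% and 77.5% in wild-type cells, 54.8% and 100% in hda1∆ and again 100% in both libraries of tup1∆. Without replicate 1 of hda1∆ the spike-in comparison would have been a gain of 25 points, and without replicate 2 a loss, at -20.25 points. The gain in tup1∆ with spike-in was not called by limma (adjusted p = 0.519). The peak began 632 to 734 bp before the start codon in the 4 tup1∆ libraries and 108 to 310 bp before it in the 4 wild-type libraries, so its 5′ edge lay farther out without overlap. The upstream calls for H4ac depended on the window. With only 200 bp before the start codon, the difference fell to 26.8 points in both mutants without spike-in, where no call remained, and to 0 in tup1∆ with spike-in, where every library was covered.

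**Figure D3:**
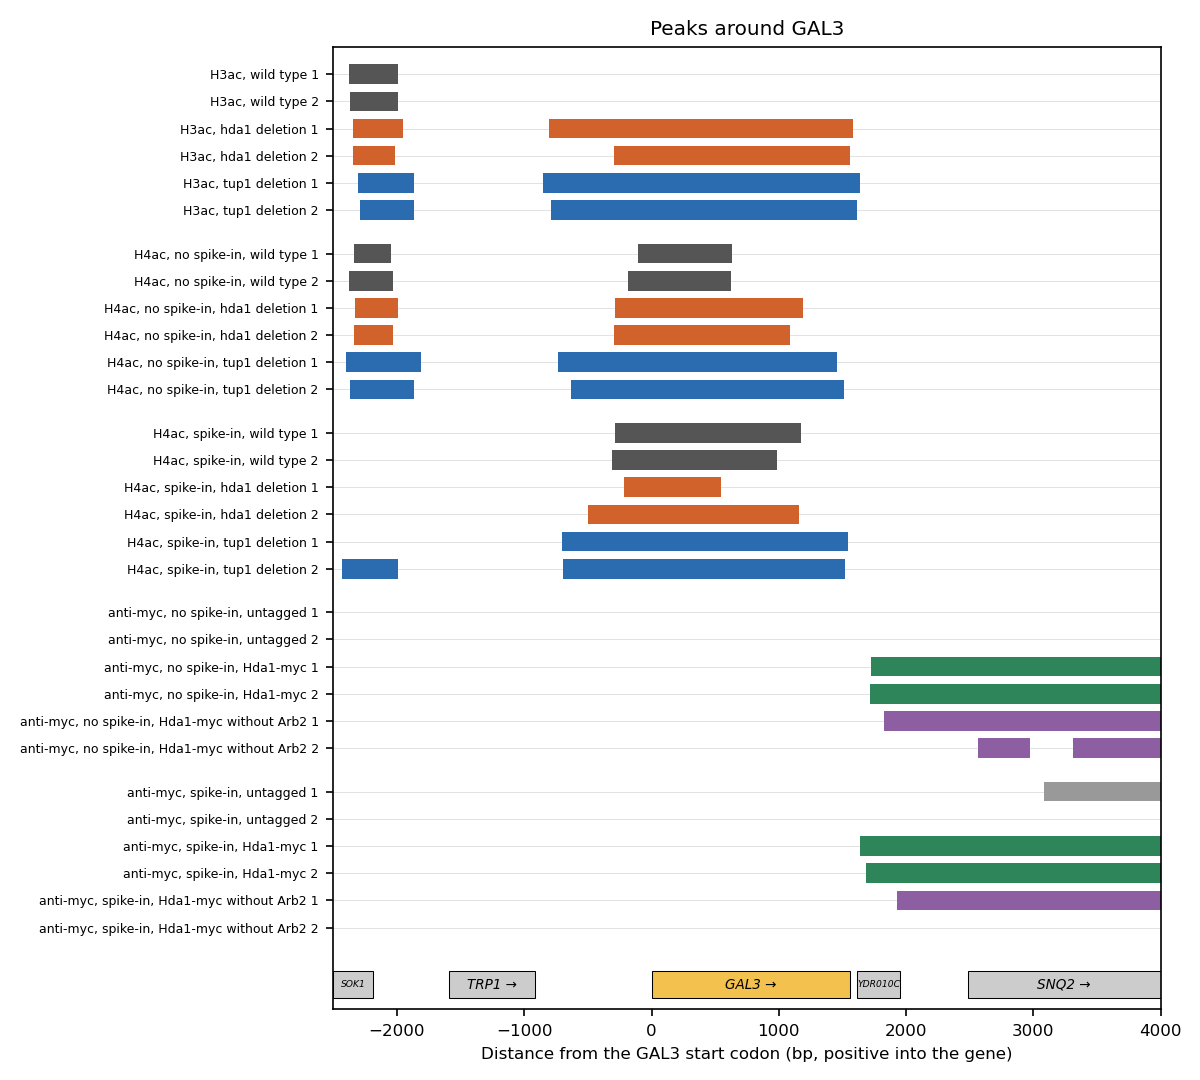
Peaks around GAL3, 1 line per library, against distance from the GAL3 start codon in bp, with coding regions as boxes. H3ac peaks over GAL3 are seen only in hda1∆ and tup1∆, H4ac peaks are longest in tup1∆, and Hda1-myc peaks begin 76 to 165 bp beyond the stop codon, over YDR010C.

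Hda1-myc itself had no peak over GAL3 or upstream of it. A long Hda1-myc peak began just beyond the gene, 165 and 151 bp after its stop codon without spike-in and 76 and 125 bp after it with spike-in, and ran over the reading frame YDR010C and the transporter gene SNQ2. The coverage of YDR010C was 66.7% and 70.9% without spike-in and 93.4% and 78.7% with it. In cells whose Hda1-myc lacks Arb2 it was 37.8% and 0% without spike-in and 6.61% and 0% with it, and in untagged cells 0% in all 4 libraries. These values describe the edge of the peak only. Over SNQ2, peaks were still called without Arb2 in both libraries without spike-in and in replicate 1 with it. Their fold enrichment was 1.41 to 1.75, against 1.94 to 3.17 in Hda1-myc cells. Untagged replicate 1 with spike-in also had a peak over SNQ2, with a fold enrichment of 1.43.

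GAL2 had 1 peak over its 3′ part in every acetylation library, with its summit 1006 to 1450 bp from the start codon of a 1725 bp coding region. The 400 bp upstream of it were at 0% in all 18 libraries. The 3′ edge of the peak varied little, between 1530 and 1752 bp, while its 5′ edge lay at 107 to 1110 bp and set the coverage.

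With spike-in, the H4ac coverage of GAL2 was 56.7% and 59.8% in wild-type cells, 44.3% and 42.1% in hda1∆ and 85.5% and 78.3% in tup1∆. Values of the 3 strains did not overlap, hda1∆ being lowest and tup1∆ highest. The difference was -15.0 points in hda1∆, a loss, and 23.7 points in tup1∆, a gain. The loss was no longer called by limma (adjusted p = 0.0669), with a margin of 25 points, or with the gene table moved by 200 bp down the chromosome (a difference of -6.72 points). The gain was called by limma (adjusted p = 0.0218) but not with a margin of 25 points. The rule of 50% coverage could not call it, because both wild-type libraries were already above 50%.

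Without spike-in, the H4ac coverage was 50.3% and 49.9% in wild-type cells, 43.9% and 44.3% in hda1∆ and 59.2% and 71.4% in tup1∆. Strains stood in the same order as with spike-in, again without overlap, but the gaps stayed under the 10 points needed for a call, with differences of -5.97 and 15.2 points. Without replicate 1 of tup1∆, the gain was 21.3 points and called. Set directly against each other, a comparison added after the values were seen, tup1∆ exceeded hda1∆ at GAL2 by 38.7 points with spike-in (limma adjusted p = 0.00419) and by 21.2 points without (adjusted p = 0.0307). GAL2 and GAL3 were the 2 of 7 members called there, both as higher in tup1∆, against 18.9% and 20.6% of all genes called. GAL3 differed by 43.6 and 21.7 points, and the first of these was not called by limma (adjusted p = 0.148).

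For H3ac, the coverage of GAL2 was 28.9% and 31.0% in wild-type cells, 37.1% and 45.6% in hda1∆ and 60.4% and 37.4% in tup1∆. Both mutants lay above wild-type cells by means of 11.4 and 19.0 points, too close for a call. Leaving out replicate 1 of hda1∆ or replicate 2 of tup1∆ would have made each a gain, of 15.7 and 30.5 points. In hda1∆, H3ac coverage of GAL2 was thus higher and H4ac coverage lower than in wild-type cells in every library of each set. Mean coding differences over all genes had the same signs, at 4.80 points for H3ac. For H4ac they were -3.59 points without spike-in and -3.81 points with it, in peak coverage and not in amount of acetylation. The upstream neighbour EMP46, a gene for a cargo receptor of the secretory pathway, moved the same way. Its coding coverage rose by 30.6 points for H3ac in hda1∆ and fell by 59.2 points for H4ac with spike-in and by 30.4 points without, all 3 called. Its part in the GAL2 values was not tested.

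**Figure D4:**
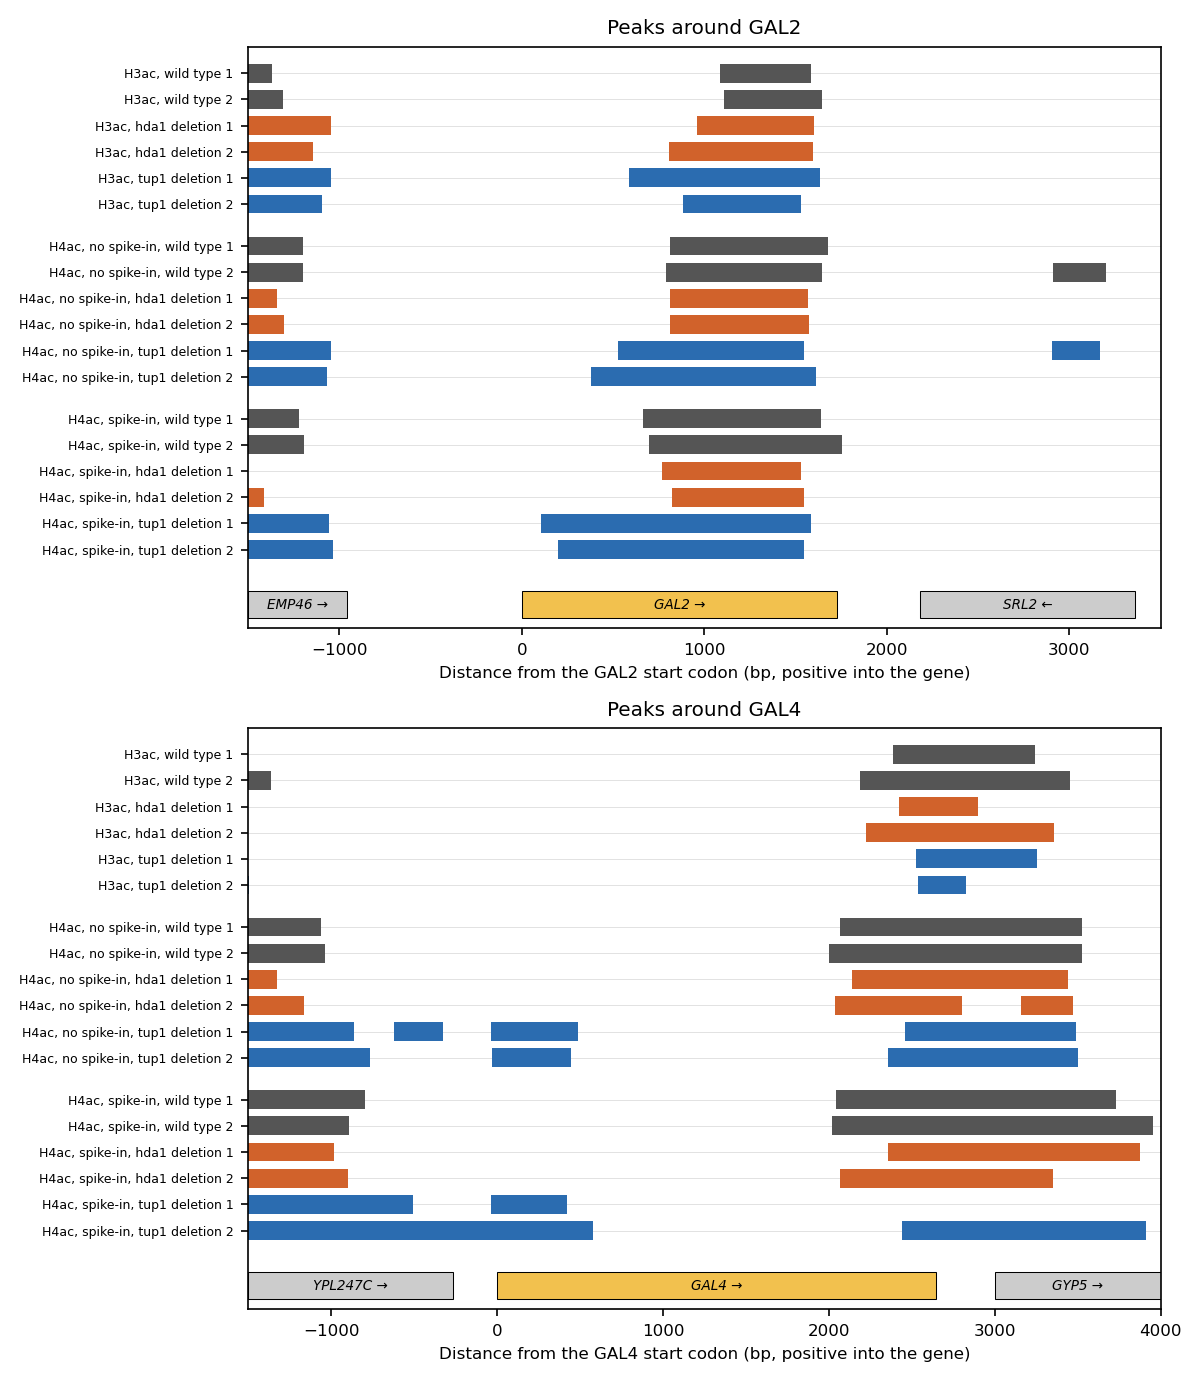
Peaks around GAL2 (top) and GAL4 (bottom), 1 line per acetylation library, against distance from each start codon in bp. The GAL2 peak keeps its 3′ edge and reaches farther towards the 5′ end in tup1∆, to 107 and 195 bp from the start codon with spike-in, and GAL4 has a peak over its start codon in the 4 H4ac libraries of tup1∆ only.

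GAL4 changed little in total but in the place of its H4ac peaks. Its coding coverage for H4ac was 21.8% to 24.3% in the 4 wild-type libraries, 11% to 23.0% in hda1∆ and 15.9% to 29.6% in tup1∆, and no comparison was called. In the set without spike-in the tup1∆ libraries, at 25.6% and 27.9%, lay above the wild-type ones by less than the margin, and with spike-in tup1∆ overlapped wild-type cells. In hda1∆ with spike-in, leaving out replicate 2 would have given a loss, at -12.2 points. In wild-type cells and hda1∆ this coverage lay at the 3′ end, under a peak that continues towards GYP5, the next gene. That peak began 2002 to 2069 bp from the start codon in wild-type cells and 2038 to 2355 bp from it in hda1∆. In tup1∆ it began at 2355 to 2458 bp in 3 libraries and was not called over GAL4 in replicate 1 with spike-in. In all 4 tup1∆ libraries another H4ac peak covered the start codon, beginning 31 to 36 bp before it in 3 libraries. In replicate 2 with spike-in it belonged to a peak of 4831 bp (chromosome XVI, 81780 to 86610) that begins 4254 bp before the start codon. The first 10% of the GAL4 coding region was at 100% in all 4 tup1∆ libraries and at 0% in all 8 others. This pattern was picked after the values were seen. Over all genes, the first 10% of the coding region was called in tup1∆ for 8.26% with spike-in and 8.66% without, and 100 genes (1.67%) went from 0% in the 4 wild-type libraries to 100% in the 4 tup1∆ libraries. The peak of replicate 1 with spike-in was weak, at the 1.5th percentile of fold enrichment, and was lost with a −log10 q of at least 5 and with equal covered length, which left a difference of 50 points and no call.

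For H3ac, GAL4 had 9.71% and 17.3% in wild-type cells, 8.35% and 15.9% in hda1∆ and 4.57% and 4.04% in tup1∆, all at the 3′ end. The tup1∆ libraries lay below the others by less than the margin. Without replicate 1 of wild-type cells the fall was 13.0 points and called. Upstream, GAL4 was at 0% in all H3ac libraries and in the H4ac libraries of wild-type cells and hda1∆. In tup1∆ the H4ac coverage was 27.0% and 7.75% without spike-in and 9.0% and 100% with it, not called because 1 library of each pair stayed under 10%. In a window reaching 200 bp to either side of its start codon, GAL4 was called in both sets, by 58.2 and 79.5 points. Without the library at 7.75% or the library at 9.0% the 400 bp window was called too, by 27 and 100 points. These calls come from the same start-codon peak and have no share of all genes beside them, so nothing further is read from them.

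GAL80 had the highest H4ac coverage of the 7. Its coding region was 100% covered in all 12 H4ac libraries, and in the wild-type libraries 78.2% to 80.6% of all genes lay lower. The coverage came from a single peak of 2401 to 2598 bp that runs on over AIM32, the gene downstream. No strain could therefore exceed another in coverage. The fold enrichment of this peak was 2.93 and 3.04 in wild-type cells, 1.93 and 2.19 in hda1∆ and 2.98 and 2.81 in tup1∆ without spike-in. With spike-in it was 2.62 and 2.75 in wild-type cells, 1.77 and 2.11 in hda1∆ and 2.44 and 2.42 in tup1∆. Both sets had their lowest values in hda1∆, without overlap. The median fold enrichment of all H4ac peaks was lowest in hda1∆ as well. It was 1.72 and 1.75 without spike-in, against 1.92 in both wild-type libraries, and 1.71 and 1.73 with it, against 2.02 and 1.97. By percentile within its library, the GAL80 peak with spike-in stood at 56.5 and 81.1 in hda1∆, 81.7 and 87.8 in wild-type cells and 73.7 and 74.2 in tup1∆. Fold enrichments were not put on a common scale between libraries, and this difference was not tested. The peak's 5′ edge lay 123 to 210 bp before the start codon, and the upstream coverage was 44.2% to 51.5% in wild-type cells, 30.8% to 45.0% in hda1∆ and 40% to 52.5% in tup1∆. In both sets the hda1∆ libraries lay below the wild-type ones by less than the margin. A loss would have been called without replicate 2 of hda1∆, at -17 points without spike-in and -12.6 points with it, and without replicate 1 of wild-type cells in the set without spike-in, at -15.25 points.

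H3ac over GAL80 was variable. Coverage was 47.5% and 67.6% in wild-type cells, 94.3% and 37.2% in hda1∆ and 98.7% and 72.3% in tup1∆. Both hda1∆ libraries, 1 high and 1 low, lay on either side of both wild-type ones, and leaving out replicate 1 turned the comparison into a loss, at -20.3 points, while leaving out replicate 2 turned it into a gain of 36.7 points. For tup1∆, leaving out its replicate 2 gave a gain of 41.2 points and leaving out replicate 2 of wild-type cells a gain of 38.0 points. Keeping only peaks with a −log10 q of at least 5 gave a gain of 39.2 points. These libraries differed in the middle of the coding region, where the peaks at its ends were joined in replicate 1 of each mutant and apart in the 4 others. Upstream H3ac coverage was 0% in all 6 libraries.

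**Figure D5:**
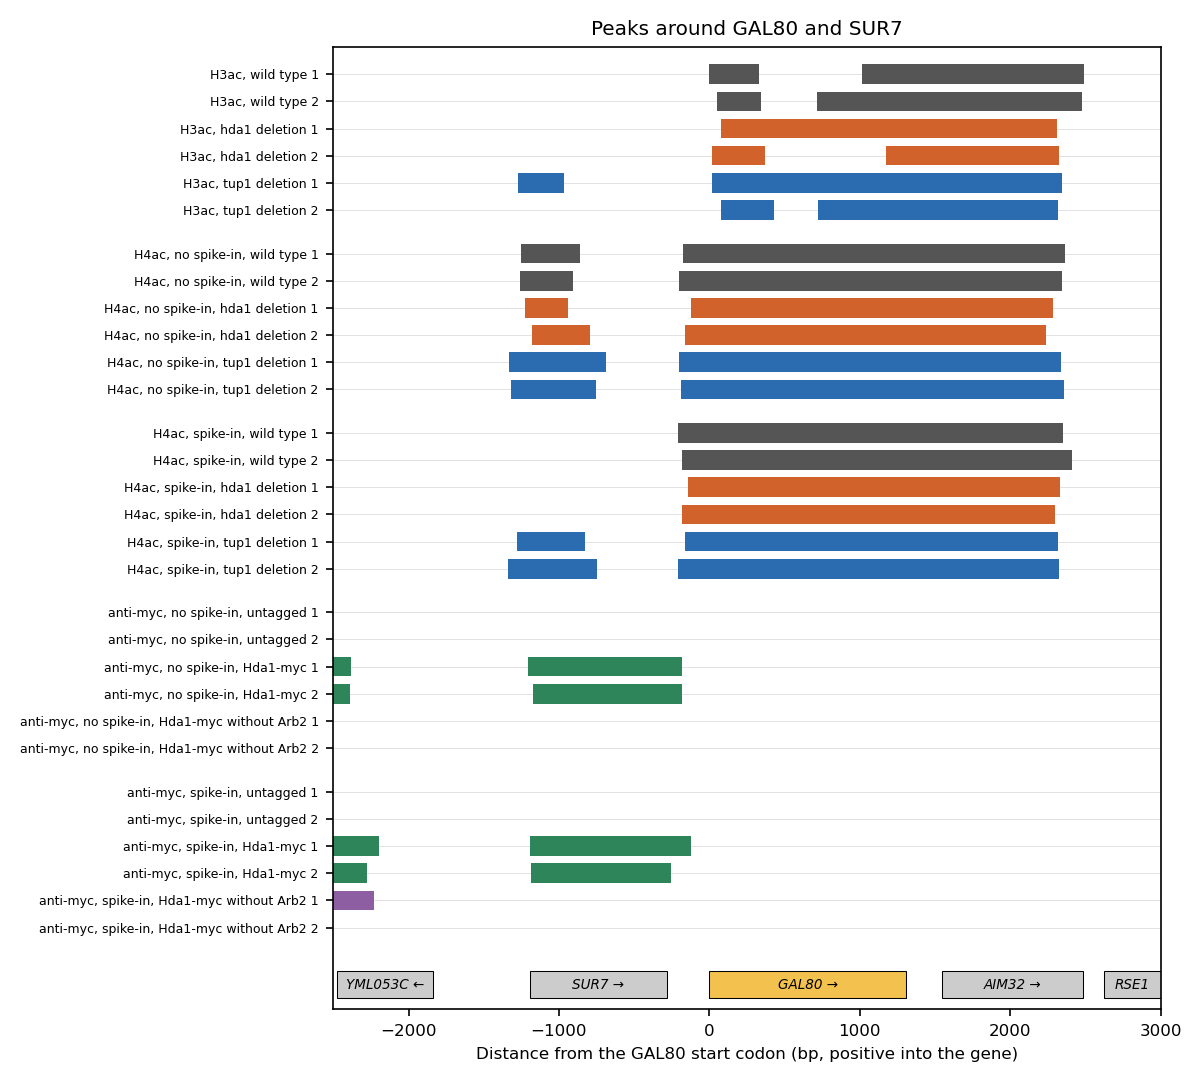
Peaks around GAL80, 1 line per library, against distance from its start codon in bp. H4ac peaks cover GAL80 in every strain, while the Hda1-myc peak covers SUR7 and ends 120 to 254 bp before the GAL80 start codon, and no such peak is called in untagged cells or without Arb2.

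Hda1-myc had no peak over the coding region of any of the 7 genes in any of the 4 Hda1-myc libraries, and the same held for the untagged cells and for Hda1-myc without Arb2. Over all genes, 12.5% were called with spike-in and 10% without between Hda1-myc and untagged cells, and 9.61% and 7.4% between Hda1-myc without Arb2 and Hda1-myc. The nearest Hda1-myc peak lay 7608 to 10151 bp from the coding regions of the cluster, 6153 to 6232 bp from GAL2 and 2788 to 3107 bp from GAL4.

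Upstream windows were added for the tag after the values were seen, and GAL80 was the 1 member of 7 called there. Its 400 bp were covered to 54.8% and 54.2% without spike-in and to 70.0% and 36.5% with it in Hda1-myc cells, and to 0% in all untagged libraries and all libraries without Arb2. It was called against untagged cells (10.4% of all genes without spike-in and 12.5% with it) and, as a loss, without Arb2 against Hda1-myc (9.35% and 11.5%). The limma adjusted p was 4.64e-06 and 0.0318 against untagged cells and 5.17e-06 and 0.0355 for the loss, in the same order of sets. limma left out windows at 0% in all 6 libraries, so this window entered through the Hda1-myc libraries alone. Of the windows it tested, limma called 78.7% and 63.6% against untagged cells, and 62.6% and 56.3% without Arb2 against Hda1-myc. No support is therefore read from these p-values. The Hda1-myc peak in this window begins 1172 to 1204 bp before the GAL80 start codon. It covers SUR7, a gene for a membrane protein of the eisosome, to 97.8% or more in the 4 Hda1-myc libraries. Since SUR7 ends 283 bp before GAL80, the 400 bp include the end of SUR7, and which gene the peak belongs to cannot be told apart. With the gene table moved by 200 bp up the chromosome the call was lost, with differences of 4.5 points without spike-in and 10 points with it. It was also lost when each list was kept to its strongest peaks up to one equal covered length, which left 0% in every library, and with spike-in under the rule of 50% coverage.

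The scattered genes had the higher mean coding coverage in every acetylation library. The mean coding coverage of the 4 scattered genes was 21.5% to 76.2%, and that of the 3 cluster genes 0% in 16 libraries, 2.77% in replicate 2 of tup1∆ for H3ac and 0.147% in replicate 2 of tup1∆ for H4ac with spike-in. The smallest gap between the means was 21.5 points, in replicate 1 of wild-type cells for H3ac. Upstream of the start codon the cluster was at 0% in all 18 libraries. The scattered genes were also at 0% there in both wild-type H3ac libraries, with no difference, and at means of 17.8% to 63.1% in the 16 others. GAL2 was at 0% upstream in all 18. In the mutant H3ac libraries the mean came from GAL3 alone, and in the H4ac libraries of wild-type cells and hda1∆ from GAL3 and GAL80. Genes of the cluster are neighbours and not independent of each other, so this comparison has the weight of 1 region against 4.

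Of 18 further genes around the pathway, 2 to 5 were called in each comparison of acetylation over coding regions. MTH1 had no peak in any of the 30 libraries, coding or upstream. PGM1 and PGM2 (phosphoglucomutases) and UGP1 (UDP-glucose pyrophosphorylase) convert the sugar phosphates. For H3ac, 4 rose and 1 fell in hda1∆, where 11.3% of all genes rose and 2.65% fell. In tup1∆ 1 rose and 2 fell, where 10.3% of all genes rose and 4.97% fell. PGM1, PCL10, FUR4 and NRG2 rose in hda1∆, by 26.1, 33.1, 26.0 and 46.5 points, and GCY1 fell by 22.8 points. Upstream of the start codon 1 rose and 3 fell in hda1∆, and PGM1 and PCL10, which rose over their coding regions, fell there by 56.0 and 67.6 points. Upstream, 6.76% of all genes rose and 7.33% fell. In tup1∆, NRG2, which encodes a glucose-responsive repressor, rose by 45.9 points, GCY1 fell by 27.9 points and NRG1, the gene of a related repressor, fell by 36 points.

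For H4ac, 1 of these 18 genes rose and 3 fell in hda1∆ with spike-in, where 4.27% of all genes rose and 10.9% fell. In tup1∆ with spike-in none rose and 3 fell, where 7.66% of all genes rose and 5.48% fell. With spike-in, UGP1, NRG2 and MIG1 fell in both mutants, and FUR4 rose in hda1∆ by 17.0 points. UGP1 fell from a mean of 26.6% to 0% in hda1∆ and in tup1∆, NRG2 from 64.2% to 0% in each, and MIG1, the gene of the main glucose repressor, from 38.4% to 0% in hda1∆ and to 11.5% in tup1∆. Without spike-in, 2 fell in hda1∆ (UGP1 by 21.7 and PCL10 by 25.4 points) and 2 in tup1∆ (UGP1 by 22.9 and NRG2 by 44.2 points), and none rose. Of all genes, 4.42% rose and 12.0% fell in hda1∆ in that set, and 8.23% rose and 5.33% fell in tup1∆.

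Against untagged cells, 2 of these 18 coding regions were called for Hda1-myc in each set, a share near that of all genes (12.5% with spike-in and 10% without), and nothing is read from it or from the 0 of 7 members. HXK2, the glucose kinase gene that also takes part in glucose repression, was at 100% in all 4 Hda1-myc libraries, with a mean of 21.4% in untagged cells with spike-in and 0% without. NRG1 was called with spike-in, at a mean of 85.9%, and MIG2 without, at 38.8%. In the other set NRG1 and MIG2 were each at 0% in both Hda1-myc libraries, so neither call was seen in both sets. Without Arb2 against Hda1-myc, NRG1 fell with spike-in, and MIG2 and HXK2 fell without it, HXK2 to a mean of 16.8%.

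Among the 10 genes that flank the members, 2 rose and 1 fell in hda1∆ and 1 rose and 2 fell in tup1∆ for H3ac over coding regions, where 13.9% and 15.3% of all genes were called. For H4ac, 1 rose and 1 fell in hda1∆ with spike-in and 1 fell without, against 15.1% and 16.5% of all genes called, and 2 rose in tup1∆ in each set, against 13.1% and 13.6%. Those 2 were SUR7, by 44.7 and 18.3 points, and YPL247C, which lies upstream of GAL4, by 29.0 and 24.3 points. KAP104, next to GAL7, stayed at or under 0.472% in all 18 acetylation libraries. FUR4, beyond GAL1, had means between 15.1% and 56.3%, so the edge of the covered chromatin lay on that side of the cluster.

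Genes most like each member were found by the mean absolute difference in coding coverage over the 18 acetylation libraries. INO1, which encodes inositol-3-phosphate synthase, was nearest to GAL2, at 6.59 points. LEE1 was nearest to GAL3, at 8.8 points, with 0% in both wild-type H3ac libraries and 98.0% to 99.3% in the 4 mutant ones. TMN3 was nearest to GAL4, at 3.53 points, APN1, a DNA repair endonuclease gene, to GAL80, at 2.02 points, and LAF1 to GAL1, at 0.187 points. GAL1 was at 0% in most of these libraries and at 8.32% at most, so its nearness to LAF1 rests on very little coverage. GAL7 and GAL10 were equal to 628 other genes, all at 0%, and no gene is named for them.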

How the data were processed

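Chromatin from yeast was precipitated with antibodies to acetylated H3, acetylated H4 or the myc tag. Of 54 samples, 30 have a peak list and were used, and 24 (input or total H3) are not analysed here. According to the submitters' processing notes and the methods, the authors used FastQC 0.11.5, Bowtie2 2.2.5, Picard 2.6, bedtools 2.26.0 and MACS2 2.1.0 with a q threshold of 0.05, library by library. The methods name total H3 as the MACS2 control for the enrichment of acetylated histones, while the control library of each deposited peak list and the handling of reads that match several places (GAL1 and GAL3 are paralogs, GAL2 resembles other hexose transporters) are not given in the sources used here. The notes name the builds R64 and sacCer3 and the methods R61-1-1, so gene positions from the R64 table are printed only as lengths and distances, and peak positions are those of the lists, counted from 1.

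Each peak in the deposited lists has a start, an end and a summit, a score, the fold enrichment over control (a ratio), and the −log10 of its p-value and q-value. The authors' score, which is derived from the −log10 q, and the deposited −log10 p were not used further. Merged peaks were laid over coding regions, 10 equal parts of them, and 400 bp upstream windows of 6002 genes with Python 3.11.15. The gene table was checked by sliding it in steps of 20 bp. Without a shift, the mean profile of H4ac peaks around start codons on each of 6 chromosomes correlated with that of all other chromosomes at 0.975 to 0.996, and the best shifts were -80 to 20 bp. A gene was called when both libraries of a group lay at least 10 percentage points above both of the other. limma 3.58.1 in R 4.3.3 on percent covered, with all 6 libraries of a set and antibody and Benjamini-Hochberg adjustment, was an alternative, as were a margin of 25 points, a rule of 50% coverage, −log10 q of at least 5, equal covered length, the gene table moved by 200 bp either way, other upstream windows, a replicate block and leaving out each library. Apart from limma, the alternatives were computed for the members only, so no share of all genes stands beside them. Leaving out a library also makes the rule easier to meet. The scripts were tested on simulated data. Depth is unknown, and no interval from counts is given.

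The named genes are the 7 members, 18 further pathway genes where called, the 10 flanking genes, the nearest genes by coverage, and HDA1 and TUP1. The members and lists were chosen with earlier results of these data known. The direct comparison of the mutants, the upstream windows for the tag and the first 10% of coding regions were added after the values were seen. The count of genes with the H3ac pattern of GAL3 and the count of runs of adjacent genes were not planned either.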

Additional observations from a re-analysis of the deposited data

Results flagged for a closer look

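GAL2 moved in opposite directions for the 2 marks in hda1∆. Its coding coverage differed from wild-type cells by 11.4 points for H3ac, with every hda1∆ library above every wild-type library, and by -5.97 points for H4ac without spike-in and -15.0 points with it, with every hda1∆ library below. Only the loss with spike-in was called. limma called none of the 3 (adjusted p = 0.51 for H3ac, 0.396 and 0.0669 for H4ac without and with spike-in). Over all genes the mean difference in coding coverage in hda1∆ was also positive for H3ac (4.80 points) and negative for H4ac (-3.59 and -3.81 points). Coverage does not measure the amount of acetylation. The difference between the marks was not tested.

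GAL4 did so in tup1∆. Its coding coverage differed from wild-type cells by -9.22 points for H3ac, with both tup1∆ libraries below, and by 3.67 points for H4ac without spike-in, with both above. With spike-in the H4ac difference was -0.397 points and the libraries overlapped. This difference was not tested either.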

How the results depend on the processing

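The count of members called kept within 1.5 times its main value in 210 of the alternative settings and moved in 42. A count of 0 in both also counted as kept. The 210 thus include every setting of the tag over coding regions, where no member had a peak, and these show no robustness. No gene called in the main comparison reversed, but 2 uncalled comparisons took opposite calls with the library left out: GAL80 for H3ac in hda1∆ (-20.3 without its replicate 1, 36.7 without its replicate 2) and GAL3 upstream for H4ac with spike-in in hda1∆ (25 and -20.25 points). With a margin of 25 points the count was 0 for H4ac with spike-in over coding regions in both mutants and upstream in tup1∆. Under the 50% rule it was 0 for H4ac with spike-in in tup1∆, coding and upstream, and 0 for the tag upstream with spike-in in both comparisons. For H4ac this was fixed for the genes called, GAL2 and GAL3, whose wild-type libraries were already above 50%. With −log10 q of at least 5 the count was 2 for H3ac coding in tup1∆. With the gene table moved up it was 0 upstream for H4ac without spike-in in both mutants and for the tag in all 4 comparisons. With the table moved down it was 2 for H3ac coding and H4ac without spike-in coding in tup1∆, 2 upstream for H4ac in tup1∆ in both sets, and 0 for H4ac with spike-in coding in hda1∆. With equal covered length it was 0 for the tag upstream in all 4 comparisons. With the 200 bp windows it was 0 for H4ac without spike-in in hda1∆, and in tup1∆ the 1 gene called was GAL4 in place of GAL3. The cause of these moves was not tested.

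With limma the count was 0 for H4ac with spike-in coding in hda1∆, 1 coding in tup1∆ and 0 upstream in tup1∆. limma left out genes at 0% in all 6 libraries or 100% in all, so it tested 811 to 4246 genes where the margin took all 6002. It called 530 for H3ac coding in hda1∆ where the margin called 836, and upstream 416 against 846 in hda1∆ and 536 against 964 in tup1∆. For H4ac with spike-in limma called 537 against 908 coding and 415 against 874 upstream in hda1∆, and 482 against 789 coding and 435 against 792 upstream in tup1∆. For the tag with spike-in it called 492 against 753 coding. The other comparisons with wild-type or untagged cells stayed within 1.5 times.

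Leaving out 1 library gave 1 to 3 members called for H3ac coding in hda1∆ and in tup1∆ and for H4ac with spike-in coding in hda1∆. It gave 0 to 2 for H4ac with spike-in upstream in hda1∆, and 1 to 2 for H4ac upstream in tup1∆ in both sets, upstream in hda1∆ without spike-in, and coding in tup1∆ without spike-in.

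With the replicate block the count was 2 for H4ac without spike-in upstream in hda1∆, where GAL80 was called with a difference of -11.75 points beside GAL3. Same-numbered libraries did not deviate together (correlations of -0.0255 to 0.0793 in the comparisons with wild-type or untagged cells and of Hda1-myc without Arb2 with Hda1-myc), so the numbers are not taken as pairs. The exception was Hda1-myc without Arb2 against untagged cells with spike-in, a comparison not used above, at 0.615 coding and 0.311 upstream, where replicate 1 had the more peaks in both groups (628 and 59, 235 and 10). Coverage cannot show changes within a region that is wholly covered, as GAL80 was for H4ac, or below the peak threshold, as in the cluster.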
